A study of Mus musculus with 2 samples.

Results

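The transcripts described here are those of 10 mouse genes that write, erase or read N6-methyladenosine (m6A), and the data are the places where they were recovered with the m6A reader YTHDF2. The genes were chosen by whether the authors' peak list held a peak for them, either in the table that pairs peaks with genes or over the gene body in mm10, so that holding a peak is no finding here. They comprised 4 writers (Mettl14, Wtap, Virma and Zc3h13), 1 eraser (Fto) and 5 readers (Ythdf3, Ythdc1, Ythdc2, Hnrnpc and Rbmx), out of 3287 protein-coding genes with a peak over the body. Together their bodies held 28 of 9271 peaks. The series had 1 RNA immunoprecipitation (RIP) library made with an antibody to YTHDF2 and 1 input library. Both came from wild-type C2C12 cells, a mouse myoblast line. The cells were taken through differentiation to myotubes in 2% horse serum for 4 to 5 days, with no further treatment. Both libraries carried batch label 1, and an IgG control named in the design text was not analysed here. No value has a replicate, and with 1 library of each kind no test was made. Expression levels are not in the files used here, and a peak needs an RNA that is present, so a gene without a peak is not shown to be unbound.

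m6A is added to RNA in the nucleus by a complex in which Mettl3 is the catalytic subunit and Mettl14 its RNA-binding partner, held by Wtap, Virma and Zc3h13, and it is removed by the demethylases Fto and Alkbh5. Proteins with a YTH domain bind the methylated base directly: Ythdf1, Ythdf2 and Ythdf3 in the cytoplasm, where YTHDF2 brings marked transcripts to decay, and Ythdc1 in the nucleus, where it acts on splicing and export. Hnrnpc and Rbmx are nuclear RNA-binding proteins that reach sites opened when m6A loosens the RNA fold around them. A YTHDF2 pulldown can thus be read for transcripts of the m6A machinery itself.

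All 9271 peaks had a median of 29 RIP fragments at the summit (quartiles 20.0 and 46.0) and a median fold enrichment of 4.40 (quartiles 3.34 and 5.64). Fold enrichment is the authors' own ratio of RIP fragments over the local input background at the summit, and the ranges in brackets after it are 95% intervals from an exact Poisson count of the fragments. They leave out every error but counting in the RIP library, and hold the background fixed. The depth of the libraries is unknown. Of 15 genes listed as myotube markers, 4 (Mylpf, Neb, Tnni2 and Ttn) held a peak over the body, against 0 of 4 myoblast, 0 of 3 fibroblast, 0 of 3 adipocyte and 1 of 3 neuronal markers (Syn1). These are counts of peaks and give no expression level, so they do not check the cell type. Of all protein-coding genes, 15.0% held a peak over the body, and nothing is read from the marker counts.

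Among these 10 genes the readers held more peaks, and more per length of gene, than the writers or the eraser. The 4 writers held 5 peaks over 170.0 kb of gene body (0.294 per 10 kb), the eraser Fto held 5 over 355 kb (0.141 per 10 kb), and the 5 readers held 18 over 168 kb (1.07 per 10 kb). Among all protein-coding genes with a peak the median was 0.373 per 10 kb (quartiles 0.181 and 0.767). The authors' gene table named 1 of the 4 writers (Zc3h13), not the eraser, and 4 of the 5 readers (Ythdf3, Ythdc2, Hnrnpc and Rbmx), which is 5 of 10 genes where it named 5.81% of all protein-coding genes. A peak over the body was a condition of the choice for all 10 genes and was found for 15.0% of protein-coding genes. At least 4 peaks were found over Ythdc1 (6), Fto (5), Ythdf3 (4) and Hnrnpc (4), and over 3.17% of protein-coding genes. Since the genes were picked for their peaks, nothing is read from these shares.

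**Figure D1:**
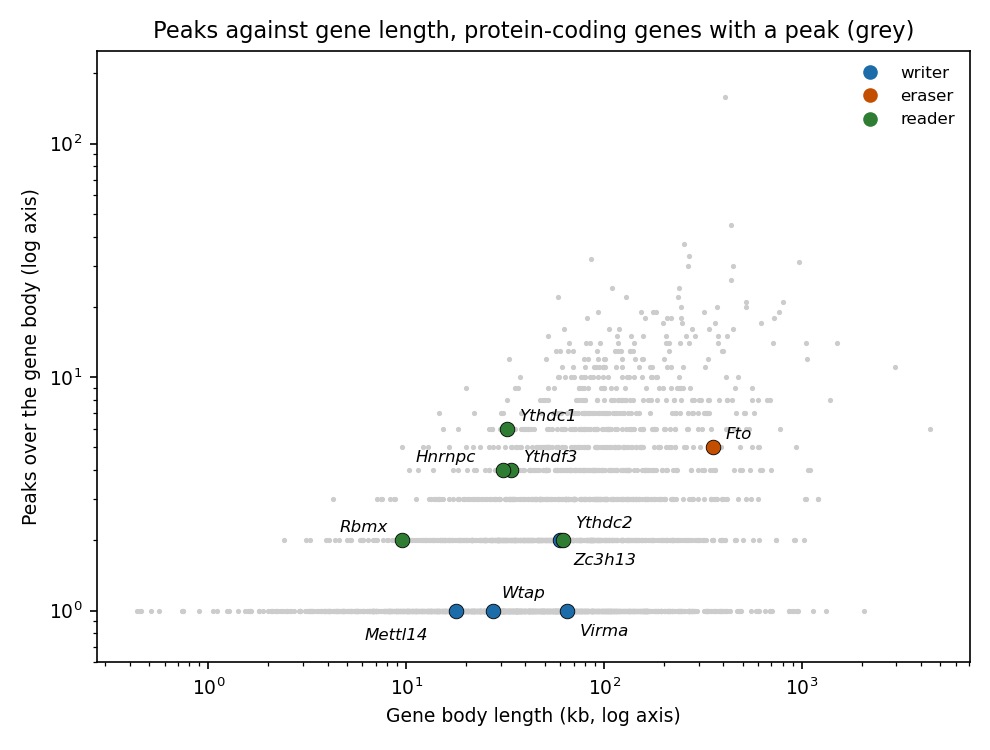
Number of peaks over the gene body (log axis) against gene body length in kb (log axis), with 1 grey point for each of the 3287 protein-coding genes with a peak and coloured points for the 10 m6A genes. Ythdc1 held 6 peaks over 32.4 kb, Rbmx 2 over 9.51 kb and Fto 5 over 355 kb.

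Length ordered the genes differently from the raw number of peaks. Rbmx had 2.10 peaks per 10 kb and Ythdc1 1.85, at percentiles 94.7 and 93.5 of the protein-coding genes with a peak. Hnrnpc followed at 1.30 and Ythdf3 at 1.18. All 4 writers and Ythdc2 lay between 0.154 (Virma) and 0.561 (Mettl14), and Fto was lowest at 0.141 despite its 5 peaks. Since the genes were picked for holding a peak, each was set beside the protein-coding genes with a peak within 25% of its own length (the longer over the shorter). At least as many peaks were held by 4.71% of 510 such genes for Ythdc1, 10.9% of 503 for Hnrnpc, 11.9% of 514 for Ythdf3, 21.2% of 156 for Rbmx and 54.1% of 534 for Ythdc2. The share was 34.8% of 115 for Fto and 53.1% of 531 for Zc3h13, and the other 3 writers had the single peak that the choice required.

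Most of the peaks lay in introns, as did most peaks of all protein-coding genes. Of the 28 peaks, 20 touched no exon of any annotated transcript of the gene (71.4%, Wilson 95% interval 52.9 to 84.7%), against 77.4% of the 8778 peaks in protein-coding gene bodies. Counting exons of coding transcripts alone turned this order, with 85.7% against 81.9% outside them. The remaining 8 comprised 4 in exons of coding transcripts (1 in coding sequence, 1 in a 5' UTR and 2 in 3' UTRs), 1 in the last exon of an Rbmx transcript annotated as subject to nonsense-mediated decay, and 3 in exons of Ythdc1 transcripts annotated as retained introns. Introns alone held 4 of the 5 writer peaks, all 5 Fto peaks and 11 of the 18 reader peaks (61.1%, 38.6 to 79.7%). The Wilson intervals take each peak as independent, but the 18 reader peaks lie in 5 genes and the 5 Fto peaks in 1. They are therefore no basis for comparing the roles, or the 28 peaks with all. No strand is recorded for a peak. The protocol names no DNase step, so RNA and DNA of an intron cannot be told apart as the source of its fragments.

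**Figure D2:**
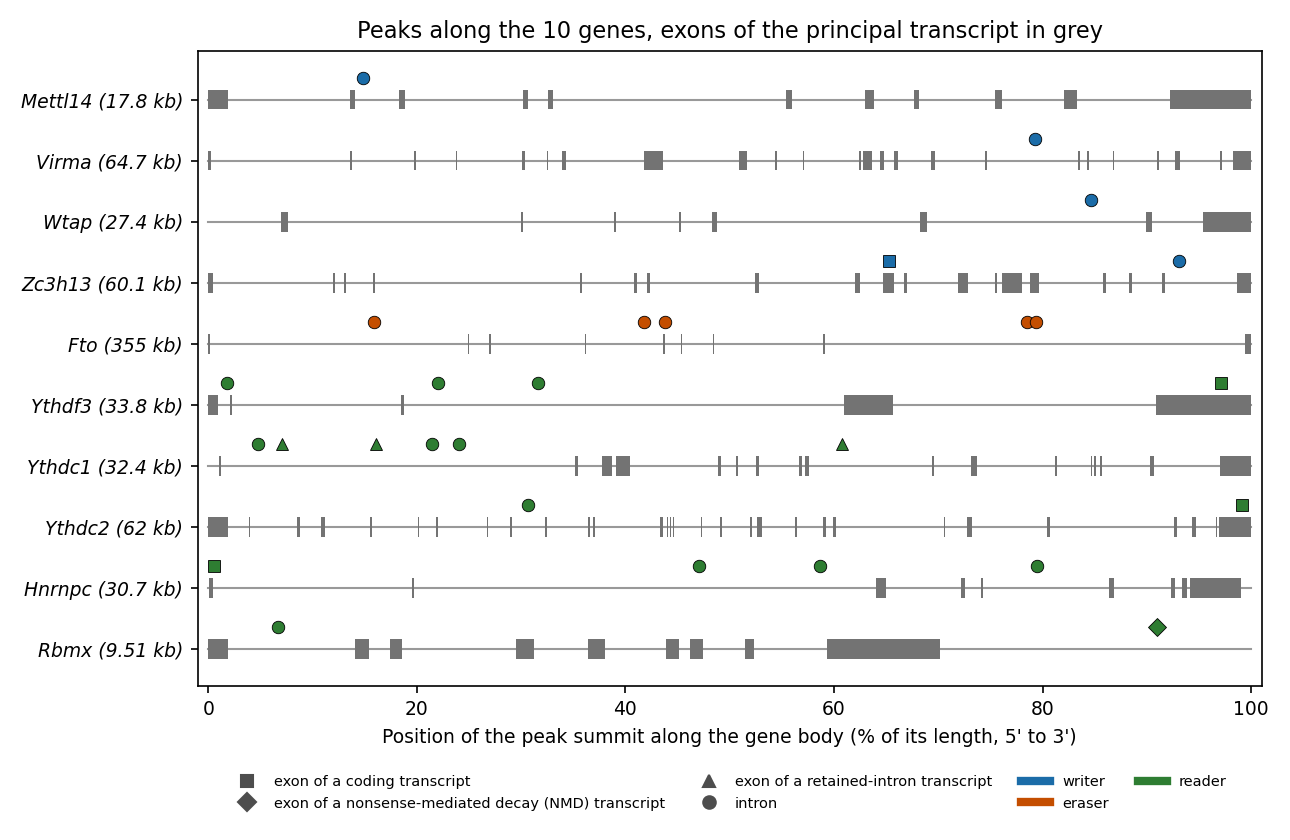
Maps of the 10 genes, each scaled to its own body length, from the gene's 5' end to its 3' end, with exons and with the peaks marked by the element they touch. The 5 peaks of Ythdc1 in its first intron lie together near the 5' end, while the 5 peaks of Fto are spread over introns 1, 4, 5 and 8.

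Mettl14, the RNA-binding partner of the catalytic subunit, held 1 peak of 186 bp in its intron 2, 47 bp from the nearest exon, at chr3:123383364-123383549 on the minus strand. The summit had 13 fragments over a background of 1.08, which is the lowest background of the list, and a fold enrichment of 6.10 (3.47 to 10.1). Its −log10 q was 5.31. Virma, the large scaffold that steers the complex to the 3' end of transcripts, also held 1 peak, in an intron of 5588 bp and 2564 bp from the nearest exon, at chr4:11537161-11537346 on the plus strand. It had 28 fragments over 3.16, a fold enrichment of 6.30 (4.26 to 8.99) and a −log10 q of 10.8. The 2 fold enrichments are close and their intervals overlap, although Virma had the larger number of fragments. The sequences of both peaks are shown as examples of writer peaks in introns, read on the strand of the gene in mm10 from 5' to 3'. The capitals mark DRACH, the consensus around m6A, which reads A, G or T, then A or G, then A, then C, then A, C or T.
Mettl14 intron 2: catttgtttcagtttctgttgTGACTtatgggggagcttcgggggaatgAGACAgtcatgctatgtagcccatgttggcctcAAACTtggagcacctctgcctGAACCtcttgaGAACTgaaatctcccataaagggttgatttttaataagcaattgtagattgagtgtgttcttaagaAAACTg
Virma intron 17: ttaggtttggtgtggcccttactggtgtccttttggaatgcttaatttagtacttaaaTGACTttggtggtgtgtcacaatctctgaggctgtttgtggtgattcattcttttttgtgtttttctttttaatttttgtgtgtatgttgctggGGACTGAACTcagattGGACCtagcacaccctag
The Mettl14 peak held 6 DRACH sites and no GGAC, and the Virma peak 4 DRACH sites and 2 GGAC.

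Wtap, the adaptor that brings the writer complex to nuclear speckles, held 1 peak of 363 bp in its intron 6, 1289 bp from the nearest exon, at chr17:12970848-12971210. It had 39 fragments over a background of 10.00 and a fold enrichment of 3.28 (2.36 to 4.45), the lowest among the writer peaks. Repeat-masked bases made up 51.0% of it.

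Zc3h13, the zinc finger protein that keeps the complex in the nucleus, held 2 peaks of different kinds. The first lay in coding sequence, in exon 10 of 19 and 3565 bases before the stop codon, at chr14:75323529-75323739 on the plus strand. It had 131 fragments, the most of the 28 peaks, over a background of 30.0, as high as in the 3' UTR peak of Ythdf3 and above the other 26 peaks. Its fold enrichment was therefore moderate at 3.84 (3.21 to 4.55), at rank 5928 of 9271, while its −log10 q of 27.7 stood at rank 104. The other lay in intron 18, 719 bp from the nearest exon, with 37 fragments over 4.00, a fold enrichment of 6.86 (4.89 to 9.38) and a −log10 q of 15.1. The ranks of the coding peak thus differed by the measure used. The sequence of the coding peak is shown because it held no DRACH on the strand of the gene and repeats a short unit, GGGATGTCC, marked by the capitals.
Zc3h13 exon 10: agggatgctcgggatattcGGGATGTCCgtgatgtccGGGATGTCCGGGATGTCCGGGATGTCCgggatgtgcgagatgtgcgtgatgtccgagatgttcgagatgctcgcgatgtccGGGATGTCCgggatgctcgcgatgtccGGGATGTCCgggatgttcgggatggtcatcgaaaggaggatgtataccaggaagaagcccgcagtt
The coding peak held 6 copies of GGGATGTCC and none on the other strand. Of 3238 peaks of like length (within 10%), 2 held the unit on the strand of the gene, which is 0.0618%, and the Zc3h13 peak is counted among these. The unit was read from the Zc3h13 peak itself, so a low share elsewhere was fixed in advance and nothing is read from it. Shifted against itself by 27 bases, the shift that gave the most equal bases, the coding peak had 71.2% of its bases equal. That was percentile 98.8 of 8619 peaks, each taken at its own best shift, whose median was 34.3%. None of it was repeat-masked. On the strand opposite to the gene the coding peak held 13 DRACH sites and 10 GGAC.

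Fto, the demethylase of the set, held 5 peaks in introns of a gene with 9 exons, and none touched an exon. In order along the gene they had 48, 15, 33, 30 and 47 fragments over backgrounds of 9.30, 3.03, 5.02, 11.0 and 13.0. The fold enrichments were 4.29 (3.19 to 5.66) in intron 1, 3.60 (2.12 to 5.77) in intron 4, 5.10 (3.56 to 7.09) in intron 5, and 2.33 (1.60 to 3.30) and 3.09 (2.29 to 4.09) in intron 8. The intron 5 peak was the highest, and its interval overlapped those of 3 of the other 4, all but the first intron 8 peak. The peaks in introns 4 and 5 also lay over 4831440D22Rik, annotated on the opposite strand, and without strand their fragments cannot be assigned to either gene.

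**Figure D3:**
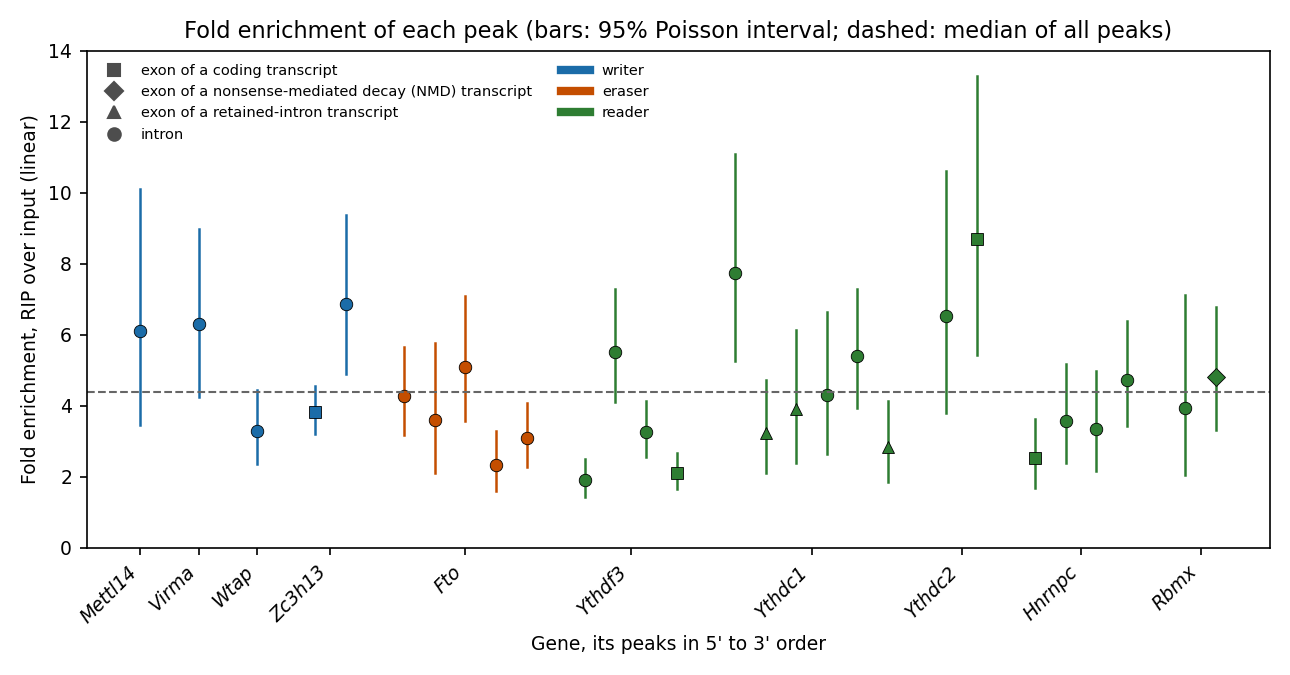
Fold enrichment of the 28 peaks (vertical axis, linear ratio of RIP over local input background), grouped by gene along the horizontal axis, with 95% Poisson intervals as bars and the element of each peak as a symbol. The dashed line is the median of all peaks, 4.40. The highest peaks are those of Ythdc2 in its 3' UTR (8.69) and Ythdc1 in intron 1 (7.75), and the lowest is that of Ythdf3 in intron 1 (1.91).

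Ythdf3, a cytoplasmic reader of the same family as YTHDF2, held 4 peaks with 52, 48, 68 and 72 fragments, in order along the gene, over backgrounds of 24.0, 7.0, 18 and 30.0. Their fold enrichments were 1.91 (1.44 to 2.49) in intron 1, 5.53 (4.11 to 7.28) and 3.27 (2.55 to 4.14) in intron 3, and 2.12 (1.67 to 2.66) in the 3' UTR. The peak of highest fold enrichment thus had the fewest fragments of the 4. Its interval lay above those of the intron 1 and 3' UTR peaks, and overlapped that of the other intron 3 peak by little, from 4.11 to 4.14. The 3' UTR peak, the one the authors' table lists, lay 2071 bases after the stop codon in a 3' UTR of 3059 bases, and ranked 8921 of 9271 by fold enrichment. The DRACH site nearest to its summit, 2 bp away, is shown with 12 bases on either side, at chr3:16216033-16216061 on the plus strand, with the site in capitals.
Ythdf3 3' UTR site: tcgtggtgaagaGAACAtcccagtgcctt

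Ythdc1, the nuclear reader, held the most peaks of the 10 genes, 6, and is not in the authors' gene table. In order along the gene they had 28, 24, 17, 18, 41 and 24 fragments over backgrounds of 2.38, 6.0, 3.16, 3.0, 6.0 and 7.0. The fold enrichments were 7.75 (5.25 to 11.1), 3.23 (2.12 to 4.73), 3.92 (2.38 to 6.13), 4.30 (2.65 to 6.65), 5.41 (3.93 to 7.29) and 2.83 (1.85 to 4.14). The first peak was the highest, at rank 462 of 9271, and its interval overlapped those of peaks 3, 4 and 5. Of the 6 peaks, 5 lay in the first intron of 11037 bp, which makes up 34.0% of the gene body. That is 4.53 peaks per 10 kb of this intron. The first introns of Ythdf3, Rbmx, Hnrnpc and Fto held 1 peak each, which is 24.9, 8.70, 1.71 and 0.113 per 10 kb, since they range from 401 bp in Ythdf3 to 88186 bp in Fto, and those of the other 5 genes held none. Peaks 2 and 3 touched an exon of the retained-intron transcript Ythdc1-209, and peak 6 an exon of Ythdc1-206. All 5 peaks in the first intron also lay over the long non-coding RNA Gm43055, annotated on the same strand, so their fragments cannot be assigned to either transcript.

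The strongest peak of Ythdc1 and its most repetitive one are shown, with DRACH in capitals. They are read on the plus strand, that of the gene, the first as 300 bases around the summit at chr5:86805621-86805920 and the other whole at chr5:86811936-86812132.
Ythdc1 intron 1, peak 1: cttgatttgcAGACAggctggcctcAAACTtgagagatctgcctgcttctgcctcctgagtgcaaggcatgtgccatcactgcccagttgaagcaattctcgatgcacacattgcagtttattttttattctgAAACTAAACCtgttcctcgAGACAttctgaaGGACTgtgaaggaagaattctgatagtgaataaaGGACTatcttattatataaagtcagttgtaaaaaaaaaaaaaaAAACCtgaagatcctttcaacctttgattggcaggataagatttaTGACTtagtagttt
Ythdc1 intron 1, peak 5: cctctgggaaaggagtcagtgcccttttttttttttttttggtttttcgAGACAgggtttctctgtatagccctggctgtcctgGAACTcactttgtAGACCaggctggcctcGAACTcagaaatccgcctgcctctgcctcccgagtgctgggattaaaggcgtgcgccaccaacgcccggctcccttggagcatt
Peak 5 of Ythdc1 was 92.4% repeat-masked and matched 43995 other places of the genome over at least 80% of its length, 35766 of them at 90% identity or more. Peak 4, 85.8% masked, matched 3435 places, 2447 of them at that identity. Peaks 2 and 3 were 55.8 and 75.7% masked, and only shorter stretches of them matched elsewhere. In all, 10 pairs of the 28 peaks shared an aligned stretch, and 2 of them serve as examples. The Wtap peak and peak 5 of Ythdc1 shared 105 bases at 83.8% identity on the same strand, and an intron 2 peak of Hnrnpc and peak 3 of Ythdc1 shared 174 bases at 83.3% on opposite strands. How the aligner placed reads that match several places is not given in the sources used here, and whether it bears on the values of these peaks was not tested.

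Hnrnpc, a nuclear protein that binds uridine tracts and takes part in splicing, is encoded on the minus strand of chromosome 14, and its gene held 4 peaks. From the 5' end they had 27, 26, 22 and 41 fragments over backgrounds of 9.0, 5.82, 5.21 and 7.0. The fold enrichments were 2.53 (1.70 to 3.64) at the 5' UTR, 3.58 (2.39 to 5.17) and 3.35 (2.16 to 4.99) in intron 2, and 4.74 (3.44 to 6.38) in intron 5, and the 4 intervals overlap pairwise. The peak in the authors' table, at the 5' UTR, had 91 of its 317 bp in exon 1 and its summit in intron 1. The intron 5 peak was 96.3% repeat-masked. Rbmx, an RNA-binding protein of the spliceosome encoded on the X chromosome, held 2 peaks. The first, in intron 1, had 9 fragments over 1.30 and a fold enrichment of 3.95 (2.04 to 7.11). It was the peak with the fewest fragments of the 28. The other had 31 fragments over 5.00 and a fold enrichment of 4.82 (3.33 to 6.77). The authors' table marks that peak as 3' UTR, and it lay in exon 10 of the decay transcript Rbmx-205, 1840 bp beyond the end of the principal coding transcript, Rbmx-202. The DRACH sites nearest to the summits of both table peaks are shown with their flanks, on the minus strand, at chr14:52103805-52103833 for Hnrnpc and chrX:57384365-57384393 for Rbmx.
Hnrnpc 5' UTR peak site: tgtgtaagggggAAACCggcctcgcggca
Rbmx exon 10 sites: ggcaatcacttaAAACTGACCcaatggag
The Rbmx stretch, 8 bp from the summit, held 2 overlapping sites. The Hnrnpc site lay 41 bp from the summit on the side away from exon 1. It is thus in intron 1 of the principal transcript, Hnrnpc-209, and not in the exon 1 part of the peak.

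Ythdc2, a reader with an RNA helicase domain that is best known from germ cells, held 2 peaks. The peak in its intron 9 had 14 fragments over a background of 1.08 and a fold enrichment of 6.53 (3.79 to 10.6). The other, in the 3' UTR and listed in the authors' table, had 19 fragments over 1.08 and a fold enrichment of 8.69 (5.43 to 13.3). That was the highest of the 28 peaks and rank 210 of 9271. It lay 1403 bases after the stop codon in a 3' UTR of 1936 bases. Both backgrounds stood at the lowest value of the list, as in 466 peaks, so the high fold enrichments rest on 14 and 19 fragments over a floor in the input.

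Fold enrichment was lower where the background, its denominator, was higher. Among the 8778 peaks in protein-coding gene bodies, those with a background below 2 had a median of 6.10. It was 5.36, 4.35, 3.45 and 2.81 in the bins from 2 to 4, 4 to 8, 8 to 16 and 16 to 32. The m6A genes had medians of 6.32 (4 peaks), 5.30 (6), 4.74 (9), 3.09 (5) and 2.70 (4) in the same bins. Across roles the median fold enrichment was 6.10 for the writers, 3.60 for Fto and 3.93 for the readers, at median backgrounds of 4.00, 9.30 and 5.91. The lowest and highest single peaks were 3.28 and 6.86 in the writers, 2.33 and 5.10 in Fto, and 1.91 and 8.69 in the readers. These are spans of peak values, not Poisson intervals, and they overlap. The part of the background in the order of the medians was not tested. By element, the 4 peaks in exons of coding transcripts had a median of 3.18 at a median background of 19.5, and the 20 intron peaks 4.30 at 5.51. Exon and intron peaks of all protein-coding genes lay at 3.42 and 4.62, with backgrounds of 12 and 4.09. Their exon peaks include those in exons of decay and retained-intron transcripts, which the 3.18 and 19.5 of the m6A genes leave out. The exon values of the m6A genes and of all genes are thus not of the same kind, and no comparison is drawn from them.

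**Figure D4:**
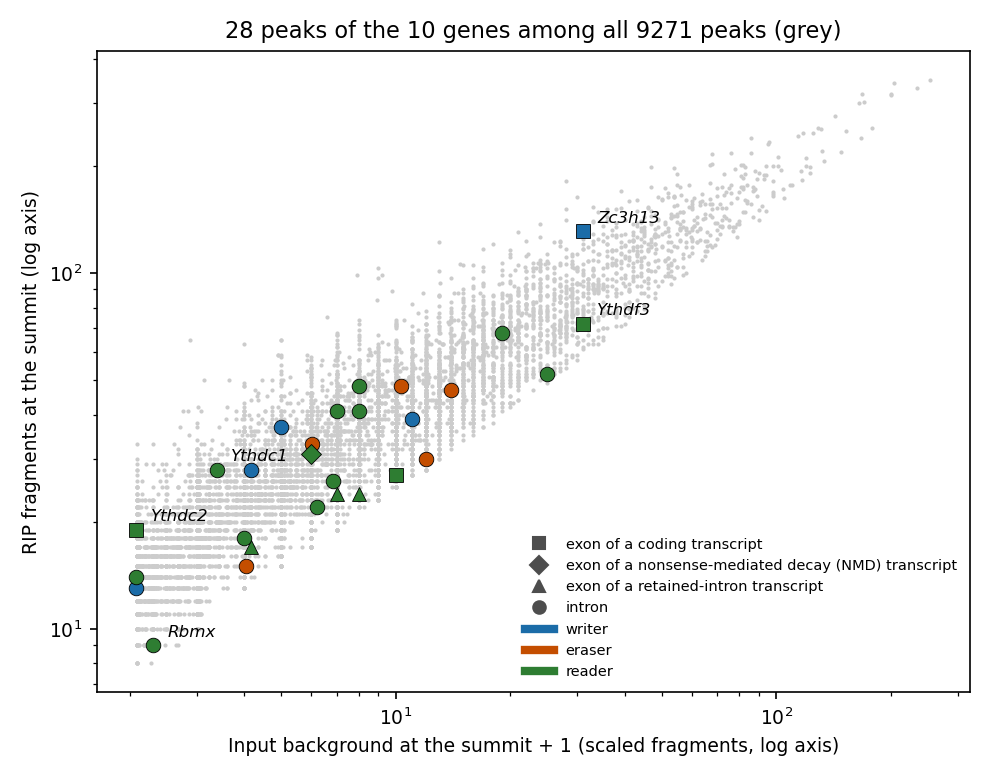
RIP fragments at the summit against the local input background with 1 added, for all 9271 peaks (grey) and the 28 peaks of the m6A genes (coloured by role), on log axes. The coding peak of Zc3h13 lies highest among the 28 with 131 fragments over 30.0, and the peaks of Mettl14 and Ythdc2 stand at the lowest background, 1.08.

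DRACH was searched on the strand of the gene, and its reverse complement was counted as the other strand. The 28 peaks held 148 sites, 20.4 per kb (95% Poisson interval 17.2 to 23.9), and 25.7 per kb on the other strand. All 8619 peaks that lie on 1 strand of protein-coding genes held 17.7 and 24.5 per kb. A site was present in 26 of the 28 peaks, and in 96.4% of all these peaks. By role, the density was 15.7 per kb in the writers (40.0 on the other strand), 16.3 in Fto (26.9) and 22.5 in the readers (22.1). The coding peak of Zc3h13 held 13 of the 46 sites on the other strand of the writers, so most of them lay in the other writer peaks. GGAC, the form of the motif known as the strongest acceptor of the mark, was present in 13 of the 28 peaks (46.4%) and in 45.8% of all. A match is a stretch of letters in the window and no measure of methylation or binding.

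More than 50% of the sequence was repeat-masked in 11 of the 28 peaks (39.3%), and in 35.0% of the 8619 peaks on 1 strand of protein-coding genes. Pyrimidines made up at least 70% of 2 of the 28 (7.14%) and of 2.62% of these 8619. The peaks just outside the gene bodies show where the rule drew its line. The nearest lay 5224 bp from Rbmx, with a fold enrichment of 5.11, then 49425 bp from Wtap (3.61) and 60425 bp from Mettl14 (3.04), and those of the other 7 genes lay from 124599 bp (Hnrnpc) to 1346805 bp (Ythdc2) away.

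In a wider list of 27 m6A genes, which includes these 10, 15 had a peak over the body, against 15.0% of protein-coding genes, and 6 were in the authors' table, against 5.81%. The list contains the 10 genes picked for their peaks, so nothing is read from these counts. Peaks were found for 6 of 12 writers and their partners, 1 of 2 erasers and 8 of 13 readers. Over all genes of the list the density was 0.411 peaks per 10 kb for the readers, 0.202 for the writers and 0.133 for the erasers, so the reader value lay well below the 1.07 of the 5 readers chosen. The 12 genes without a peak were the catalytic subunit Mettl3, Rbm15b, Cbll1, Mettl16, Zcchc4 and Pcif1 among the writers, the eraser Alkbh5, and the readers Ythdf1, Ythdf2, Igf2bp1, Igf2bp3 and Prrc2a. The transcript of YTHDF2 itself was thus without a peak. Beyond the 10 genes, Rbm15, which guides the writer complex to its targets, had 1 peak in an exon of a retained-intron transcript with 78 fragments and a fold enrichment of 3.10 (2.46 to 3.85), and Mettl5, which methylates ribosomal RNA, had 1 with 23 fragments and 3.62 (2.35 to 5.34). Among readers, Igf2bp2, which stabilises its targets, had 1 peak with 30 fragments at 5.52 (3.79 to 7.79). Hnrnpa2b1, a nuclear splicing factor, had 2 in intron 1, both over an exon of a retained-intron transcript, with 141 fragments at 2.10 (1.77 to 2.47) and 65 at 3.19 (2.47 to 4.05). Fmr1, the gene of the fragile X protein, had an intron peak with 12 fragments at 5.13 (2.86 to 8.63) and a 3' UTR peak with 45 at 2.39 (1.76 to 3.18), and was the one gene of the list beyond the 10 in the authors' table.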

How the data were processed

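RNA recovered with an antibody to YTHDF2 and input RNA from C2C12 myotubes were sequenced as 1 library each. Per the series' design text, Bowtie placed the reads on mm10 and MACS found the peaks. The submitters' processing notes also list DiffBind, deepTools, FastQC, HOMER, Picard and Trim Galore, and for none of them is a version or setting given in the sources used here. The protocol's library steps are worded for DNA. For each peak the authors deposited a pileup signal, a fold enrichment (a ratio), and both a p-value and a q-value as −log10. The authors deposited the percent of peaks per element and, in their deposited tables of Gene Ontology and KEGG, a p-value and FDR per term.

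Since pileup values were whole multiples of 0.9, a step of that size was taken for 1 fragment. The background was computed from pileup and fold enrichment with 1 added to each. With it, a Poisson tail matched −log10 p within 0.01 in 100.0% of peaks. Coordinates are 1-based. Genes, exons and sequence came from GENCODE M21 and GRCm38, the same build. A peak was placed in a gene by an overlap of at least 1 bp, and its element was the first it touched of stop codon, start codon, coding exon, 3' UTR, 5' UTR, exon of a decay transcript, exon of a retained-intron transcript, intron. Copies were sought with blastn 2.17.0 (e-value 1e-10), and scripts used Python 3.11.15, pandas 2.3.3, scipy 1.17.1 and pysam 0.24.0 and were tested on simulated data. The 10 genes and all lists were chosen with earlier results of these data known. All 10 were named, other m6A genes were named from a list of 27, and further genes where they overlap a peak or lie nearest to one of the 10. Alternatives were 2 stricter peak thresholds, the peak centre, peaks over no other gene, RefSeq gene bodies and exons of coding transcripts alone. The sequences of the other peaks are not reported here. Fragments may include PCR copies, so intervals cover counting error only.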

Additional observations from a re-analysis of the deposited data

How the results depend on the processing

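The set was recomputed under 6 alternatives, of which RefSeq gene bodies and exons of protein-coding transcripts alone were chosen after seeing the data. Of 53 values, 38 stayed within 1.5 times or within the interval of the value given, and 15 moved. With a fold enrichment of at least 4, the 28 peaks became 13, the reader peaks fell from 18 to 8, the writer peaks from 5 to 3 and the eraser peaks from 5 to 2, the genes in the authors' table from 5 to 2 (Ythdc2 and Rbmx), and the density from 0.404 to 0.188 per 10 kb. The median fold enrichment went from 3.93 to 5.53, and Wtap lost its peak. With a q-value of 1e-05 or less there were 16 peaks, of which 8 were reader, 5 writer and 3 eraser peaks. This filter thus removed reader and eraser peaks and no writer peak, and the lead of the readers in peak number narrowed. It left 3 genes in the table (Zc3h13, Ythdc2 and Rbmx), 0.231 peaks per 10 kb and a median of 5.26. Falls in number follow from the filters, which remove peaks by construction. The median of all 9271 peaks, 4.40, lies above the fold filter, so most of them pass it. By q, the Mettl14 peak with a −log10 q of 5.31 ranks 6261, so at least 6261 of the 9271 pass that filter. Nothing about the roles is read from the counts left by either filter. Counting only peaks over no other gene body left 3 of the 5 Fto peaks and 1 of the 6 Ythdc1 peaks. With exons of coding transcripts alone, the intron share rose from 71.4 to 85.7%, and that of all peaks in protein-coding genes from 77.4 to 81.9%, since the exons of decay and retained-intron transcripts then count as intron.

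No paired analysis was possible because there was 1 RIP library and 1 input library. Depth is unknown, and values at the lowest background, in Mettl14 and Ythdc2, rest on 13 to 19 fragments.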

Other observations

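Of the 10 genes, the authors' deposited table of Gene Ontology terms listed 3: Rbmx in 146 terms, Ythdc2 in 95 and Hnrnpc in 48. Zc3h13 and Ythdf3 have peaks in the gene table and were listed in 0 terms. In the authors' deposited table, Rbmx and Hnrnpc stood among 20 of 112 annotated genes of the spliceosomal complex (expected 6.88, p = 1.40e-05, FDR 6.64e-04). The same 2 genes stood among 13 of 97 in the KEGG Spliceosome pathway of the authors' deposited table (expected 5.64, p = 0.00382, FDR 0.0598). Ythdc2 stood among 18 of 134 genes of helicase activity in the authors' deposited table (expected 8.14, p = 0.00122, FDR 0.0442), and not in its RNA helicase activity term, which counted 1 of 9 genes, Ddx5 (p = 0.431, FDR 0.703). The mRNA methylation term of the authors' deposited table counted 1 of 2 genes, Rnmt, which methylates the mRNA cap and is none of the 10 (p = 0.119, FDR 0.406). These p-values are the authors' own over genes of 1 peak list, and no replicate of the libraries stands behind them.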
